A study of Mus musculus with 6 samples.

Results

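The tumour necrosis factor (TNF) superfamily and its receptor superfamily are the ligands and receptors through which T cells, B cells and antigen-presenting cells exchange costimulatory and death signals. The members described here were the genes whose symbol starts with Tnfsf or Tnfrsf, together with Cd40lg, Cd40, Cd27, Cd70, Fas, Fasl, Ngfr, Ltbr and Eda2r, whose older names hide the same kinship. Of the 18193 genes with a probe set of their own, 36 met this rule. They were 10 ligands, 25 receptors and Tnfsf13os, a transcript from the opposite strand of the Tnfsf13 locus. A further 6 genes that meet the rule (Tnfrsf26, Tnfsf12, Tnfsf13, Tnfsf15, Tnfsf18 and Tnfsfm13) had no probe set assigned to them alone and were not analysed here.

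Messenger RNA was profiled on 6 Affymetrix whole-genome mouse expression arrays, 3 per genotype. Both genotypes were CD4 T cells from spleen and lymph nodes of mice carrying the OT-II transgene, a T cell receptor for an ovalbumin peptide. One group was wild type (WT), and the other was SAP-deficient, without the adaptor that Sh2d1a encodes and that SLAM-family receptors signal through. Sorted naive cells (CD44 low, CD62L+, CD25-) were stimulated over 3.5 days by ovalbumin peptide on splenocytes that lacked T cells and had been treated with mitomycin C. Both genotypes received IL-21 at 50 ng/ml and IL-6 at 100 ng/ml. Antibodies blocked TGF-β (20 µg/ml), IL-4 (10 µg/ml), IL-12 and IFN-γ. This mixture steers cells toward the follicular helper T (Tfh) state, in which T cells help B cells. The labels describe no removal of the splenocytes before RNA extraction. Whether each array stands for its own mouse or culture is not stated either. The p-values thus rest on the spread among these 6 arrays alone, and the labels do not say how much of it is technical. Sex-linked transcripts, given below, differed between arrays of the same genotype.

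Ligands of the family are mostly trimeric proteins on the surface of activated cells, and each binds 1 or a few receptors. Receptors without a death domain recruit TRAF adaptors and switch on NF-κB, which supports survival, division and cytokine production, whereas death domain receptors such as Fas can start the caspase cascade. In the follicle, CD40 ligand on the Tfh cell engages CD40 on the B cell and is needed for germinal centres, and OX40 and other members tune the lifespan of the T cell.

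Values below are log2 expression levels, and a change is the SAP-deficient mean minus the WT mean on that scale. Levels of different probe sets are not comparable with each other, so each gene is compared only with itself, and its brightness is given against the median of all probe-set means (5.75) or their 75th percentile (8.03). Arrays are numbered 1 to 3 within a genotype in the order of their records. The labels give these numbers no meaning, but arrays of equal number resembled each other. After the genotype means were subtracted, the correlation was 0.52, 0.73 and 0.60 between the WT and SAP-deficient arrays of numbers 1, 2 and 3. Between arrays of different number it was -0.52 to -0.10. Deviations cancel within a genotype, so positive values at equal numbers force negative ones elsewhere on balance. Sex-linked transcripts also followed the number. Xist, the female-specific RNA of X inactivation, stood at 12.50 in both arrays of number 1. It was at 8.21 (WT) and 8.19 (SAP-deficient) in number 2, and at 5.81 and 6.26 in number 3. Eif2s3y, on the Y chromosome, was at 3.54 (WT) and 2.91 (SAP-deficient) in number 1. It was at 9.96 and 9.98 in number 2, and at 9.80 and 9.76 in number 3. The Y-linked genes Kdm5d and Uty were likewise lowest in number 1. Number 2 thus held both Xist and Y-linked RNA. The part of sex in other differences between numbers was not tested. Because arrays of equal number were alike, a difference within a number is given beside each overall change. A fit with the number as a block is given beside the fit on genotype alone. The targeted transcript, Sh2d1a, was at 9.14 ± 0.53 in WT and 4.83 ± 0.69 in SAP-deficient arrays (SD, n = 3 each), with an adjusted p of 0.0501 in the genotype-only limma fit and 1.99e-07 with the replicate block.

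T cell markers (9 of 10 measured) averaged 11.33 to 11.49 in WT and 11.28 to 11.45 in SAP-deficient arrays. Of the 6 Tfh markers, Bcl6, Pdcd1, Icos and Il21 had means above the 75th percentile of probe-set means, whereas Cxcr5, the receptor that guides these cells to the follicle, lay near the median, at 5.01 to 6.12 over the 6 arrays. All 6, Sh2d1a included, had a lower mean in SAP-deficient arrays, and Pdcd1, Il21 and Sh2d1a were lower within all 3 numbers. Apart from Sh2d1a, the targeted gene, none of the 6 had an adjusted p under 0.05 in either limma fit. Some markers of other cells also lay above the median of probe-set means. B cell markers (12 of 13 measured) averaged 6.09 to 6.31 in WT and 5.85 to 6.15 in SAP-deficient arrays, and all 12 had a lower mean in SAP-deficient arrays. Of these, Ms4a1, Pax5, Blk, Fcer2a and Cr2 lay under the median of probe-set means, and just 1, Ighm (mean 10.39), lay above the 75th percentile. MHC class II genes (9 of 10 measured) averaged 7.25 to 7.52 in WT and 7.05 to 7.43 in SAP-deficient arrays. Both lists differed most in number 3, by -0.36 for B cell markers and by -0.47 for MHC class II, against -0.16 to -0.05 in the other numbers. Cell cycle genes (11 of 12 measured) also stood apart in number 3, where the WT array averaged 9.58 and the SAP-deficient array 10.25, a difference of 0.67. In numbers 1 and 2 that difference was -0.19 and -0.11. On bulk RNA, fewer cells of a type and less RNA per cell cannot be told apart.

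No family member was called different between the genotypes. The genotype-only limma fit called 0 of 36 members at an adjusted p under 0.05, beside 0% of all genes, and every member's adjusted p was 1.00. With the replicate block it was again 0 of 36, beside 0.0055% of all genes, which is 1 gene, Sh2d1a. Unadjusted, 0 members had p under 0.05 on genotype alone, beside 1.31% of all genes, and the lowest member p was 0.141 (Cd70, limma). Of the 36 members, 27 (75%) were brighter than the median probe set, beside 60.1% of all genes. Brighter than the 75th percentile were 16 members, beside 6758 of all 18193 genes. Changes ran from -0.21 (Cd40lg) to 0.27 (Tnfrsf21), which are 0.863-fold and 1.21-fold of the WT level. The mean was higher in SAP-deficient arrays for 20 members and lower for 16. Their median change was 0.02, against 0.008 for all genes, and their median size of change was 0.076, against 0.067.

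With the replicate block, 6 members passed an unadjusted p of 0.05 with a higher mean in SAP-deficient arrays, beside 3.49% of all genes. They were Tnfsf9, Tnfrsf18, Tnfrsf25, Tnfrsf21, Tnfrsf19 and Tnfsf14. Another 2, Tnfsf8 and Cd40lg, passed with a lower mean, beside 2.61% of all genes. None kept an adjusted p under 0.05 in that fit, where the lowest was 0.559 (Tnfsf8, limma). Within all 3 numbers the SAP-deficient array was the higher one for 10 members, beside 15.6% of all genes, and the lower one for 4 members, beside 13.1%. The 10 were Tnfsf14, Tnfsf9, Tnfrsf18, Tnfrsf25, Fas, Tnfrsf21, Tnfrsf23, Tnfrsf13b, Ltbr and Tnfrsf19, and the 4 were Cd40lg, Tnfsf8, Tnfrsf8 and Tnfrsf22. Groups that did not overlap were found for 1 member, Ltbr, whose SAP-deficient arrays all lay above the WT arrays, beside 2.38% of all genes. In the other direction this held for 0 members, beside 2.94% of all genes.

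**Figure D1:**
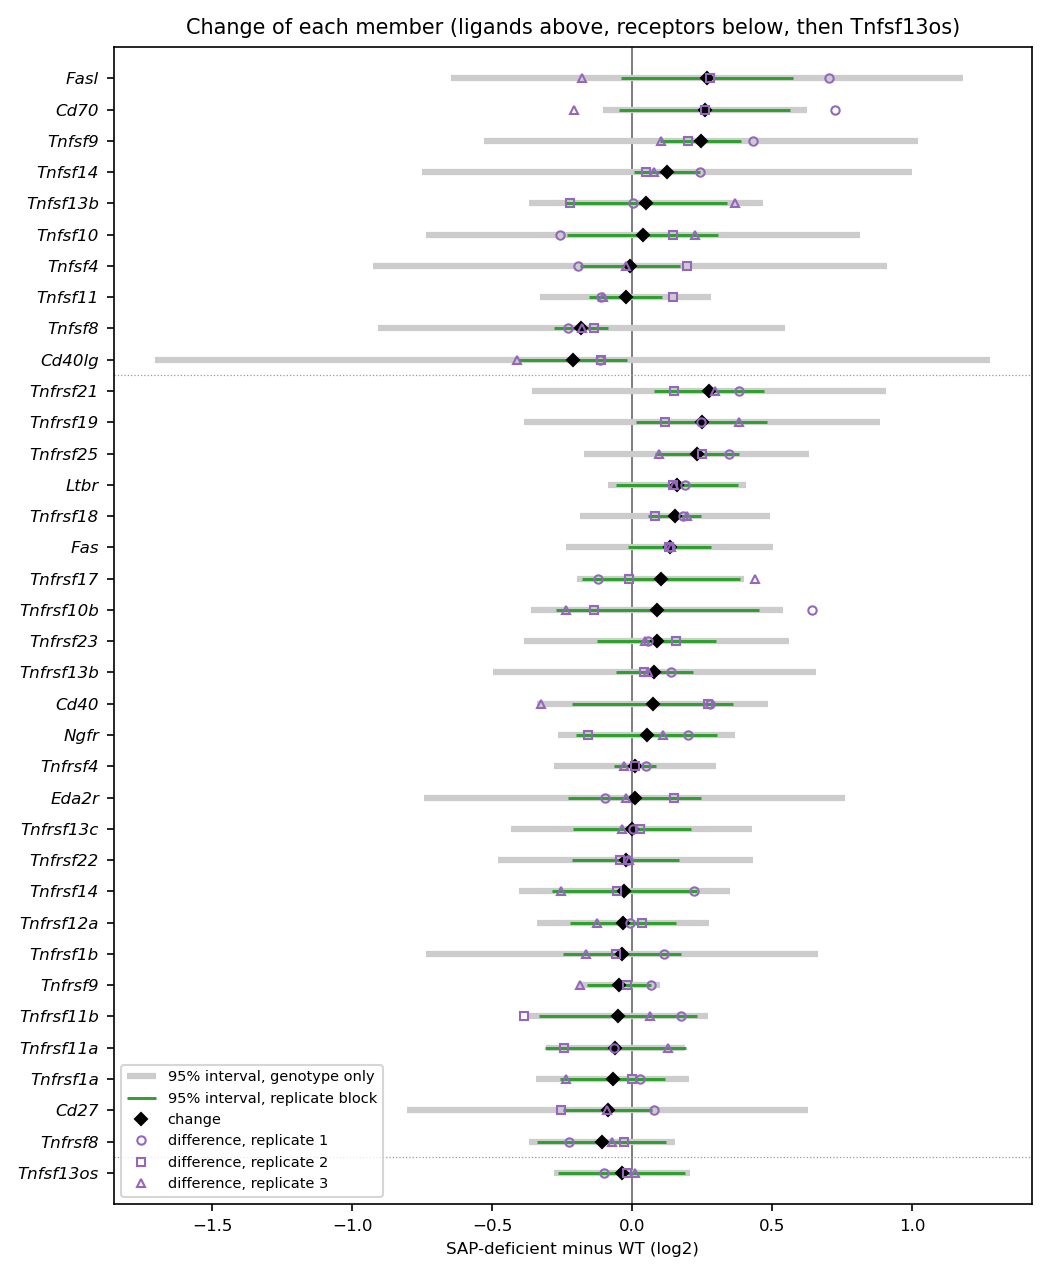
Change of each of the 36 members (SAP-deficient minus WT, log2 units), with a black diamond for the change, open symbols for the 3 differences within a replicate number, and grey and green bars for the 95% intervals of the genotype-only fit and of the fit with the replicate block. The genotype-only intervals all include 0, and the blocked intervals of 8 members, among them Tnfsf8 and Tnfsf9, do not.

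Most members varied far more between replicate numbers than between genotypes. A median of 85.8% of a member's variation lay between the numbers and 3.11% between genotypes. Over all genes these shares were 66.9% and 6.36%, and over genes at or above the median of probe-set means, where 27 of 36 members lie, they were 78.7% and 4.51%. In 32 of 36 members (88.9%) the range of the number means exceeded the size of the genotype change, the same share as over all genes (88.9%). That range passed 1 log2 unit in 8 members, beside 3.13% of all genes. These were 7 of the 10 ligands (70%) and 1 of the 25 receptors (4%), Eda2r. Number 2 was the lowest for 20 of 36 members, beside 7214 of all 18193 genes. Number 3 was the highest for 18 members, beside 6772 of all genes.

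**Figure D2:**
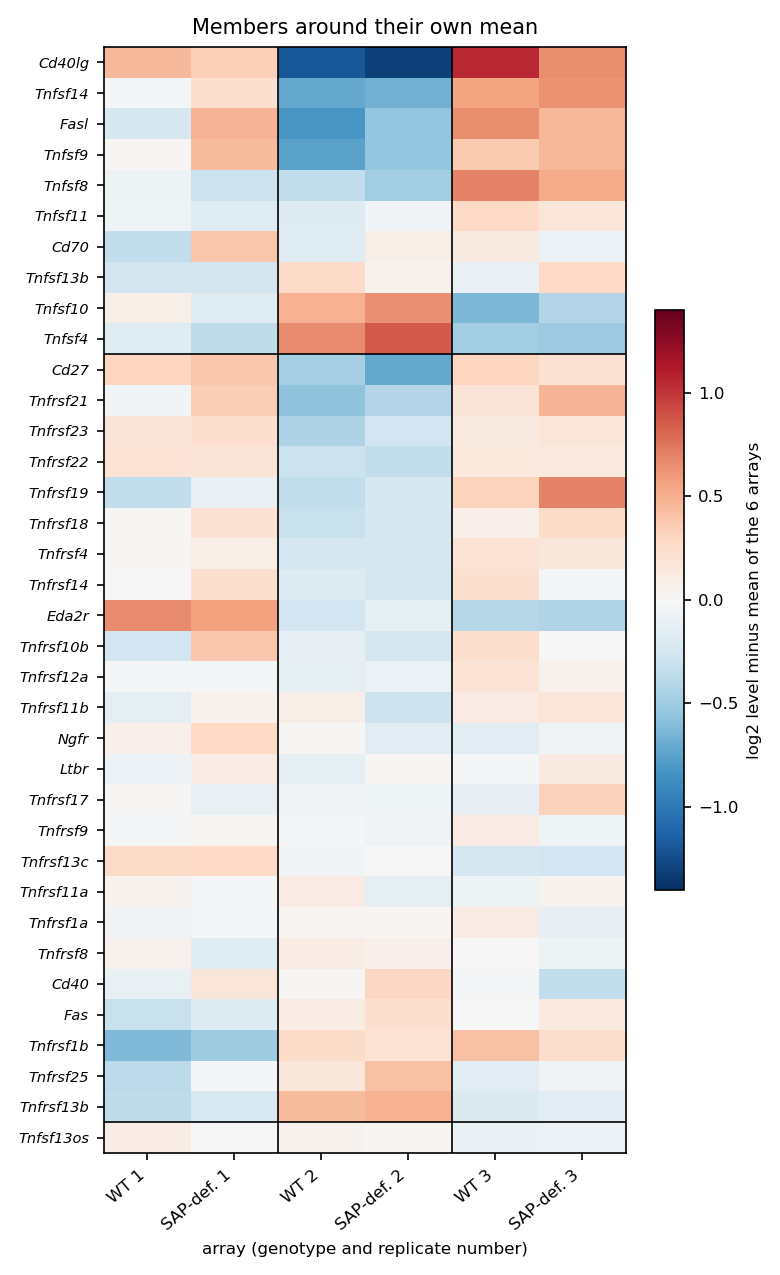
Each member's value in each of the 6 arrays as its deviation from that member's mean (log2 units), with arrays ordered by replicate number so that WT and SAP-deficient arrays of a number stand side by side. Colours change between numbers more than within them: Cd40lg, Fasl, Tnfsf9 and Tnfsf14 are low in both arrays of number 2, and Tnfsf4 and Tnfsf10 are high there.

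Promoter sequence is shown for 4 members, chosen with their values in view. Tnfsf8, Fasl and Tnfsf14 are ligands with low values in both arrays of number 2, and Ltbr is the member whose groups did not overlap. Each sequence holds the 250 bases before the RefSeq start site (GRCm38.p6), 5′ to 3′ along the gene. Capitals mark GGAAA, the core recognised by NFAT, the transcription factor of calcium signalling in T cells, or TGANTCA, the AP-1 motif, searched on both strands, so that TTTCC is the core on the other strand.
Tnfsf8, chr4:63861285-63861534, minus strand: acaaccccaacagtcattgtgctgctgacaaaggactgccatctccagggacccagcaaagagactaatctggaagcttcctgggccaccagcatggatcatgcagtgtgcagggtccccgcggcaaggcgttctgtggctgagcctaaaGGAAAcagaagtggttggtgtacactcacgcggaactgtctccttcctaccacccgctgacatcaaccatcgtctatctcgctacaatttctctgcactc
Fasl, chr1:161788496-161788745, minus strand: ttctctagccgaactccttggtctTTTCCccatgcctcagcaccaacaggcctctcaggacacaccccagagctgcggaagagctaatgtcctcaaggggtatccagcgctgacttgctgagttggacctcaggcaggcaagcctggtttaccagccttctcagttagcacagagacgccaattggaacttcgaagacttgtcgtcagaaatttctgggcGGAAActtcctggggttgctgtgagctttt
Tnfsf14, chr17:57194182-57194431, minus strand: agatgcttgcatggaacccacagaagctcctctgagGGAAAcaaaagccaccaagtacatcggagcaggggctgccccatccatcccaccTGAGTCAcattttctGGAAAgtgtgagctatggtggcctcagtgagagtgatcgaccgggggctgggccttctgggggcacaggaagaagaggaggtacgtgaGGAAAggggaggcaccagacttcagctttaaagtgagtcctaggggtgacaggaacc
Ltbr, chr6:125313886-125314135, minus strand: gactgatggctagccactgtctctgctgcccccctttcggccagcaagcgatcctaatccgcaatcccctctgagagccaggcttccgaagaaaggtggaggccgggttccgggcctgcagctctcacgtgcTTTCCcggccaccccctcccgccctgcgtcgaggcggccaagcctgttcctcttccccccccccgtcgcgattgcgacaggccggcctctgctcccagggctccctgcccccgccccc

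Tnfsf14 held 3 GGAAA cores and 1 AP-1 motif, Fasl held 2 cores, and Tnfsf8 and Ltbr held 1 each. GGAAA is short, and 55.6% of all 32851 windows of this length in the RefSeq table held it, as did 24 of the 31 windows found for 27 members (77.4%). TGANTCA was in 6.75% of all windows and in 5 member windows (16.1%), and the consensus motif of NF-κB was in 7.25% and in 3 (9.68%). The NF-κB consensus was not in the 4 windows shown. A match describes letters only.

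CD40 ligand, the signal from T cells to CD40 on B cells, had the most negative change of the family. Cd40lg (Entrez Gene 21947, X chromosome) was at 8.93, 7.29 and 9.54 in the WT arrays of numbers 1 to 3 and at 8.82, 7.18 and 9.13 in the SAP-deficient arrays. Both arrays of number 2 lay far under the other 4, and the genotypes overlapped. The change was -0.21 (95% interval -1.70 to 1.28, genotype-only limma fit), with differences of -0.11, -0.11 and -0.41 within numbers. The replicate block narrowed the interval to -0.41 to -0.02, with an unadjusted p of 0.0343 and an adjusted p of 0.805 (limma). The number means spanned 2.10 log2 units. In the RefSeq gene order 84 protein-coding genes lie between Cd40lg and Sh2d1a.

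CD30 ligand gave the smallest p of the family in the blocked fit. Tnfsf8 was at 11.90, 11.62 and 12.67 in WT and at 11.67, 11.49 and 12.49 in SAP-deficient arrays. Number 3 was high in both genotypes, and within each number the SAP-deficient array was the lower one, by -0.23, -0.14 and -0.18. Its change of -0.18 had an unadjusted p of 0.580 in the genotype-only fit and 0.00203 with the block (adjusted 0.559, limma). The receptor CD30, Tnfrsf8, was dim in these cells, at 5.71, 5.75 and 5.65 in WT and 5.49, 5.72 and 5.58 in SAP-deficient arrays, with a change of -0.11 ± 0.11 (SE).

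LIGHT, which binds HVEM and the lymphotoxin beta receptor, showed the opposite sign. Tnfsf14 was at 11.47, 10.78 and 12.04 in WT and 11.72, 10.82 and 12.12 in SAP-deficient arrays, so that number 2 was again the low one. Differences within numbers were 0.24, 0.05 and 0.08, and the change of 0.12 had a blocked unadjusted p of 0.0427 (adjusted 0.814, limma). The second probe set of the gene had a change of 0.03, and its differences of 0.22, 0.12 and -0.24 had no common sign.

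Fas ligand, the trigger of death through Fas, had the widest difference between numbers in its response to genotype among T cell ligands. Fasl was at 8.72, 8.13 and 9.60 in WT and at 9.42, 8.41 and 9.42 in SAP-deficient arrays. The SAP-deficient array was above its WT counterpart in numbers 1 and 2, by 0.70 and 0.28, and below it in number 3, by -0.18. The overall change was 0.27 (95% interval -0.65 to 1.18, limma), and the blocked interval was -0.04 to 0.57. A second Fasl probe set had a change of 0.18. CD8 T and NK cells also make Fas ligand. Their markers (5 of 6 measured) averaged 7.17 to 7.18 in WT and 7.27 to 7.38 in SAP-deficient arrays. That average differed by 0.09, 0.10 and 0.21 within numbers 1, 2 and 3, and Fasl by 0.70, 0.28 and -0.18. Within the list, Eomes, Gzma and Cd8b1 had changes of 0.35, 0.23 and 0.11, and Cd8a and Ncr1 had changes of -0.02 and 0.01. Cd8b1 stood at 8.17 to 9.10 over the 6 arrays, and Ncr1 lay under the median of probe-set means. The part of CD8 T and NK cells in the Fasl values was not tested.

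The remaining T cell ligands had changes near 0. OX40 ligand, Tnfsf4, ran against the pattern of Cd40lg: it was at 9.64, 10.46 and 9.32 in WT and 9.44, 10.66 and 9.30 in SAP-deficient arrays, high in number 2 of both genotypes. RANK ligand, Tnfsf11, was at 11.78, 11.66 and 12.12 in WT and 11.67, 11.80 and 12.01 in SAP-deficient arrays, with a change of -0.02 ± 0.13 (SE). TRAIL, Tnfsf10, was at 5.85, 6.25 and 5.13 in WT and 5.59, 6.40 and 5.36 in SAP-deficient arrays. Its brightest probe set gave a change of 0.04 and its others -0.12 and -0.31, so its sign depends on the probe set.

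**Figure D3:**
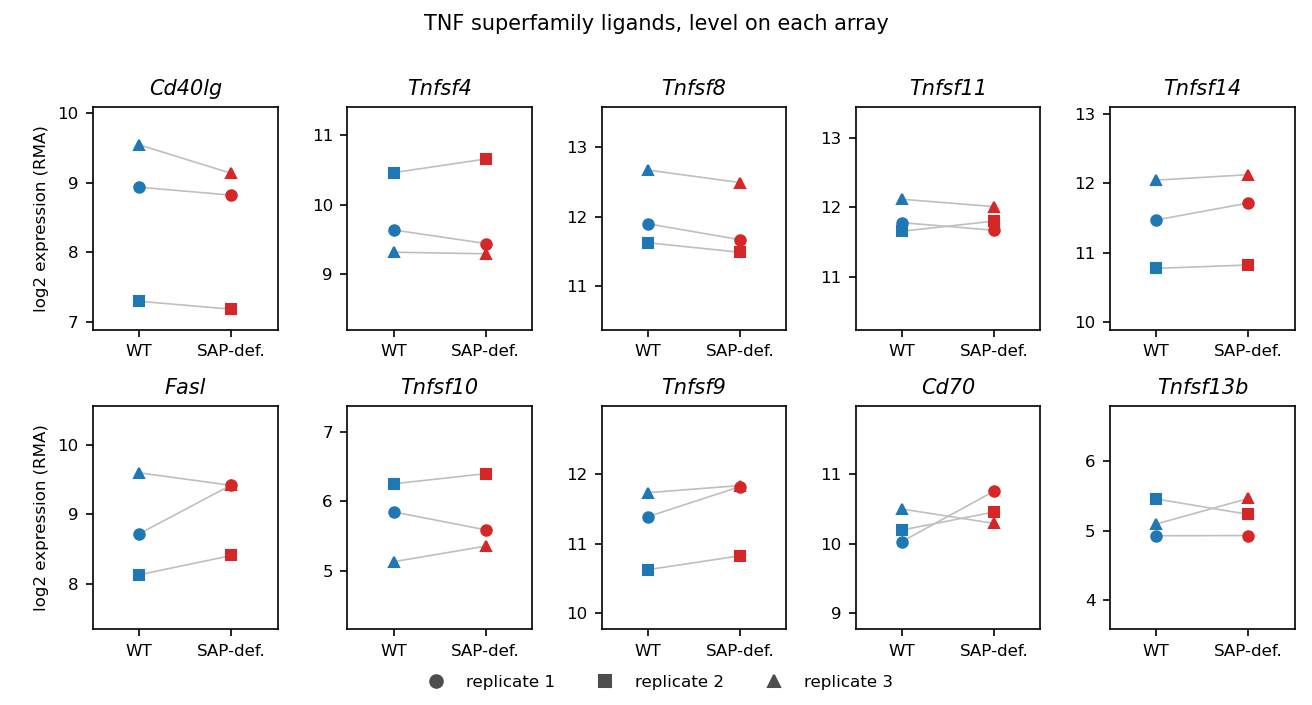
Log2 expression level of the 10 ligands in the 3 WT (blue) and 3 SAP-deficient (red) arrays, with a marker shape for each replicate number and grey lines joining arrays of equal number. In Cd40lg, Tnfsf14, Fasl and Tnfsf9 the squares of number 2 lie lowest in both genotypes, and Cd70 differs between genotypes by 0.72 in number 1 and by -0.21 in number 3.

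Of the ligands best known from antigen-presenting cells, 4-1BB ligand and CD70 were bright and had positive changes. Tnfsf9 was at 11.39, 10.62 and 11.73 in WT and 11.82, 10.82 and 11.83 in SAP-deficient arrays. Differences within numbers were 0.43, 0.20 and 0.10, and the change of 0.24 had a blocked unadjusted p of 0.00392 (adjusted 0.689, limma). Number 2 was the low number in both genotypes.

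Cd70 was at 10.03, 10.19 and 10.50 in WT and 10.75, 10.45 and 10.29 in SAP-deficient arrays, and the groups overlapped. The SAP-deficient array was above WT by 0.72 in number 1 and 0.26 in number 2 and under it by -0.21 in number 3. Over all arrays the change was 0.26 (95% interval -0.11 to 0.62, limma). With both arrays of number 3 left out, a choice made after the marker values were seen, the blocked fit gave a change of 0.49 and an adjusted p of 0.0249 (limma). Cd70 was the 1 member called in that fit, beside 0.198% of all genes. Leaving out number 3 removes the negative difference, so a larger change was fixed by that choice. Only the differences of numbers 1 and 2 remain, and the fit's standard error (0.087) also draws on the spread of all other probe sets. Number 3 is also where the B cell, MHC class II and cell cycle lists differed most between genotypes. Their part in the Cd70 and Fasl values was not tested.

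The third ligand of this kind, BAFF (Tnfsf13b), a survival factor for B cells, lay under the median of probe-set means. Its values were 4.93, 5.46 and 5.10 in WT and 4.93, 5.24 and 5.47 in SAP-deficient arrays, with a change of 0.05 ± 0.18 (SE).

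The costimulatory receptors of the T cell itself were mostly bright, and their means were mostly close between genotypes. Of the 8 in this class, 3 had a higher mean in SAP-deficient arrays, the median change was -0.03 and none was called. OX40, Tnfrsf4, which prolongs T cell survival, was at 13.33, 13.06 and 13.49 in WT and 13.38, 13.07 and 13.46 in SAP-deficient arrays. Its 95% interval ran from -0.28 to 0.30 on genotype alone and from -0.07 to 0.09 with the block (limma). For 4-1BB, Tnfrsf9, the WT values of 12.41, 12.41 and 12.55 stood beside 12.47, 12.39 and 12.37 in SAP-deficient arrays. The interval was -0.19 to 0.10 on genotype alone and -0.16 to 0.07 with the block (limma).

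GITR and DR3 were the receptors of this class with a positive difference in each number. Tnfrsf18 (GITR), a costimulatory receptor abundant on regulatory and activated T cells, was at 12.26, 11.93 and 12.31 in WT and 12.44, 12.01 and 12.50 in SAP-deficient arrays. Differences were 0.18, 0.08 and 0.19, with a blocked unadjusted p of 0.00569 (adjusted 0.722, limma). Tnfrsf25 (DR3), a death domain receptor that costimulates T cells, was at 9.62, 10.14 and 9.84 in WT and 9.96, 10.39 and 9.93 in SAP-deficient arrays. Here number 2 was high in both genotypes, the differences were 0.34, 0.25 and 0.10, and the blocked unadjusted p was 0.00695 (adjusted 0.722, limma).

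CD27, the receptor of CD70, followed the number. Cd27 was at 10.66, 9.89 and 10.66 in WT and 10.74, 9.64 and 10.57 in SAP-deficient arrays, and number 2 was lowest in both. Its change was -0.09 ± 0.31 (SE), opposite in sign to that of Cd70. TNF receptor 2, Tnfrsf1b, was low in number 1 of both genotypes, at 6.60 against 7.46 and 7.62 in WT and at 6.71 against 7.41 and 7.46 in SAP-deficient arrays. HVEM, Tnfrsf14, was at 5.99, 5.80 and 6.21 in WT and 6.21, 5.75 and 5.96 in SAP-deficient arrays, with no common direction.

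**Figure D4:**
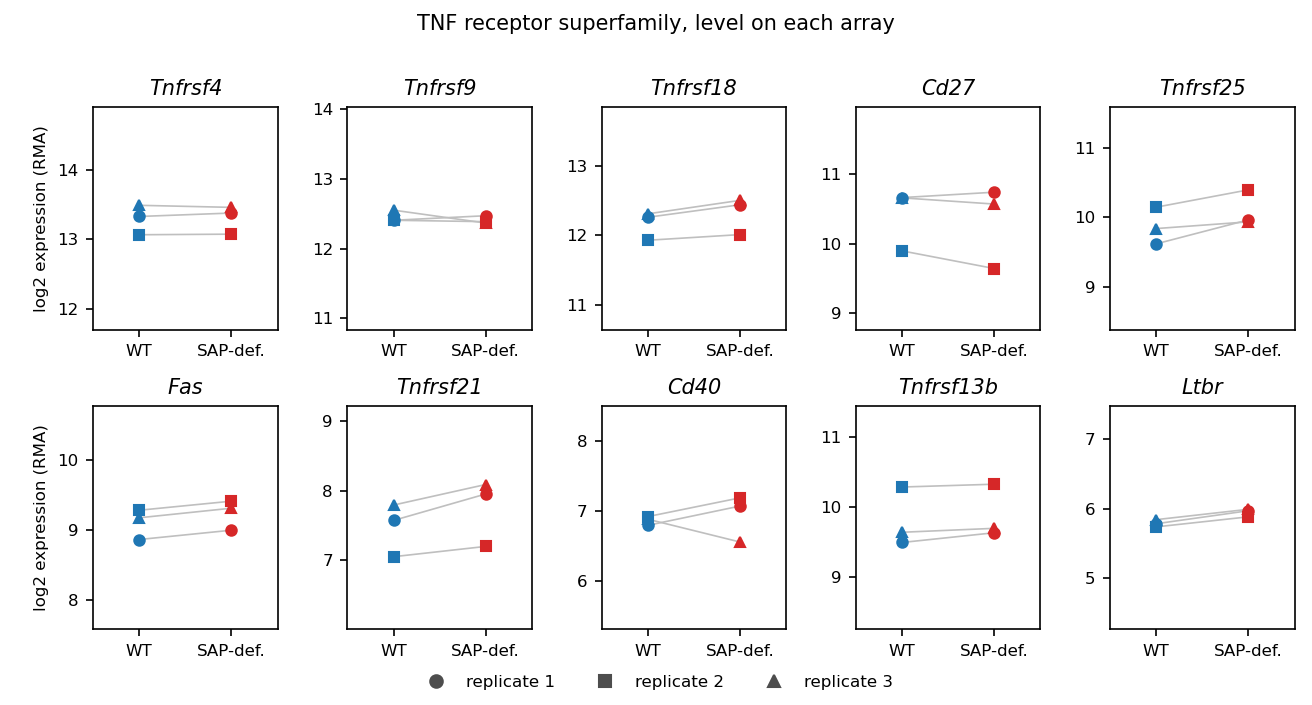
Log2 expression level of 10 receptors in the 3 WT (blue) and 3 SAP-deficient (red) arrays, with a marker shape for each replicate number and grey lines joining arrays of equal number. Ltbr is the member in which the 3 SAP-deficient values (5.88 to 5.99) all lie above the 3 WT values (5.74 to 5.84), and Tnfrsf4 and Tnfrsf9 nearly coincide between genotypes.

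Among death and decoy receptors, Fas was steady in its difference between genotypes. It was at 8.86, 9.28 and 9.18 in WT and at 8.998, 9.41 and 9.31 in SAP-deficient arrays. The SAP-deficient array was the higher one by 0.13, 0.13 and 0.14, yet the groups overlapped because number 1 was low in both. The change was 0.13 ± 0.16 (SE) on genotype alone, with a blocked interval of -0.01 to 0.28 (limma). DR6, Tnfrsf21, a death domain receptor that restrains T helper responses, had the most positive change of the family, 0.27. It was at 7.57, 7.05 and 7.79 in WT and 7.95, 7.20 and 8.09 in SAP-deficient arrays, with differences of 0.38, 0.15 and 0.30 and a blocked unadjusted p of 0.0113 (adjusted 0.722, limma). Its second probe set had a change of 0.11, and its differences of 0.13, -0.20 and 0.39 had no common sign.

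The other 4 of this class had changes of -0.07 to 0.09. TNF receptor 1 (Tnfrsf1a), the main receptor of soluble TNF, had no common sign across numbers, with differences of 0.03, 0.00 and -0.24. TRAIL receptor DR5 (Tnfrsf10b) differed by 0.64 in number 1 and by -0.14 and -0.24 in the others. The decoy receptors Tnfrsf22 and Tnfrsf23 are similar in sequence and lie side by side, and a probe set assigned to both had a change of -0.05, so their separate values of -0.02 and 0.09 are uncertain.

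Of the 5 receptors of B cells and antigen-presenting cells, none was called. The sign was positive for 4, beside 53.3% of all genes, but that of Cd40, Tnfrsf13b and Tnfrsf17 turned when 1 array was left out. CD40, the receptor of CD40 ligand, was at 6.79, 6.92 and 6.88 in WT and 7.07, 7.19 and 6.55 in SAP-deficient arrays. It was higher in SAP-deficient arrays by 0.28 and 0.27 in numbers 1 and 2 and lower in number 3, by -0.33. In number 3 the B cell and MHC class II markers were also lowest against WT, and their part in the Cd40 values was not tested. The 2 dimmer Cd40 probe sets had changes of -0.04 and -0.05, against 0.07 for the brightest. TACI, Tnfrsf13b, a BAFF receptor, was at 9.49, 10.29 and 9.64 in WT and 9.63, 10.33 and 9.69 in SAP-deficient arrays, high in number 2 of both genotypes.

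The BAFF receptor itself, Tnfrsf13c, had a change of -0.0020 ± 0.19 (SE), from 6.65, 6.35 and 6.14 in WT and 6.66, 6.38 and 6.11 in SAP-deficient arrays. BCMA (Tnfrsf17), a receptor of plasma cells, was far under the median, at 4.24, 4.17 and 4.11 in WT and 4.12, 4.16 and 4.54 in SAP-deficient arrays. The lymphotoxin beta receptor, known mainly from stromal and myeloid cells, was dim but ordered. Ltbr was at 5.78, 5.74 and 5.84 in WT and 5.97, 5.88 and 5.99 in SAP-deficient arrays, with differences of 0.19, 0.14 and 0.15. The change was 0.16 (95% interval -0.09 to 0.41), with an unadjusted p of 0.173 and, with the block, 0.132 (limma). Myeloid and dendritic cell markers (13 of 13 measured) averaged 6.08 to 6.25 in WT and 5.99 to 6.27 in SAP-deficient arrays, and their part in the Ltbr value was not tested.

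The 6 remaining receptors had changes of -0.06 to 0.25. TROY, Tnfrsf19, best known from neural and epithelial tissue, was at 5.37, 5.37 and 6.03 in WT and 5.61, 5.49 and 6.41 in SAP-deficient arrays. Its change of 0.25 had a blocked unadjusted p of 0.0405 (adjusted 0.814, limma), but its dimmer probe sets had changes of -0.03 and -0.15. Eda2r, the X-linked receptor of an ectodysplasin isoform, was at 5.66, 4.73 and 4.60 in WT and 5.57, 4.88 and 4.58 in SAP-deficient arrays. It was highest in number 1 of both genotypes, the number with the highest Xist. Fn14 (Tnfrsf12a), RANK (Tnfrsf11a), osteoprotegerin (Tnfrsf11b) and the p75 neurotrophin receptor (Ngfr) had changes of -0.03, -0.06, -0.05 and 0.05. The opposite-strand transcript Tnfsf13os had a change of -0.04.

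Ligands and their receptors were also set side by side. Of 16 ligand-receptor pairs, several of which share a ligand, 9 had changes of the same sign and 7 of opposite sign. Both Fasl and Fas had positive changes (0.27 and 0.13). Tnfsf14 (0.12) had the sign of Ltbr (0.16) and not that of its other receptor, Tnfrsf14 (-0.03). Both Tnfsf8 and Tnfrsf8 had negative ones (-0.18 and -0.11). Signs were opposite for Cd40lg and Cd40 (-0.21 and 0.07), Tnfsf9 and Tnfrsf9 (0.24 and -0.05) and Cd70 and Cd27 (0.26 and -0.09). A second bright Tnfrsf9 probe set had a change of 0.0038, so the sign of that receptor depends on the probe set. None of these changes was called.

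Several members are direct neighbours in the RefSeq gene order. Tnfsf9, Cd70 and Tnfsf14 follow each other on chromosome 17 with 0 protein-coding genes between them, and all had positive changes (0.24, 0.26 and 0.12). Their course across numbers was not shared. Tnfsf9 and Tnfsf14 were lowest in number 2 of both genotypes. Cd70 was lowest in number 1 among WT arrays and in number 3 among SAP-deficient arrays, and its number means spanned just 0.07. Tnfrsf4 and Tnfrsf18 are neighbours on chromosome 4, where 8 members lie, and had changes of 0.01 and 0.15. On chromosome 6, Cd27 and Ltbr, with 1 gene between them, had changes of -0.09 and 0.16.

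Of 46 other genes of the pathway (other superfamily genes, adaptors, kinases, death signalling and NF-κB), 40 were measured and 0 were called in either fit. Their mean was higher in SAP-deficient arrays for 32 (80%) and lower for 8, with a median change of 0.04. Of the 40, 38 lay above the median of probe-set means, and among all genes at or above it 59.7% had a higher mean in SAP-deficient arrays, with a median change of 0.02. Lymphotoxin beta, Ltb, the membrane anchor of the ligand of the lymphotoxin beta receptor, was the 1 gene of the 40 to reach an unadjusted p under 0.05 by limma on genotype alone. It was at 11.32, 11.44 and 11.40 in WT and 11.79, 11.51 and 11.76 in SAP-deficient arrays, so the groups did not overlap. Its change was 0.29 (95% interval 0.08 to 0.51), with an unadjusted p of 0.0123 and an adjusted p of 1.00, and 0.596 with the block (limma). TNF itself, Tnf, followed the number like the ligands above, at 11.73, 10.96 and 12.27 in WT and 11.91, 10.94 and 12.19 in SAP-deficient arrays.

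The probe set chosen to stand for a gene mattered at this size of change. Beyond the chosen ones, 24 further probe sets measured 17 of the members. Their change had the same sign as that of the chosen probe set in 12 and the opposite sign in 12, and the largest gap was 0.40. Among the 11 at or above the median of probe-set means, 6 had the opposite sign. For 19 members 1 probe set was the sole measure.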

How the data were processed

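Expression was measured on 6 arrays, 3 WT and 3 SAP-deficient, grouped by the strain in the labels; each was labelled from 500 ng of RNA, per the labels' protocols. The deposited values are log2 expression levels from Affymetrix Expression Console and RMA, per the submitters' processing notes; the sources used here give no versions, genome build or annotation. That method equalises the distributions of arrays and compresses differences of dim probe sets. Array medians ran from 5.73 to 5.76, and no pair of arrays shared more than 63 equal values. The number of arrays limits the precision.

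Of 45101 probe sets, 64 controls were left out. The platform annotation gives 1 gene for 34945 of the other 45037, several for 932 and none for 9160, and 34741 of the first matched a RefSeq gene table, through which symbols were updated. The brightest probe set assigned to 1 gene, by its mean over the arrays, stood for each of 18193 genes. Limma (version 3.58.1, R version 4.3.3) was fitted to all 45037 probe sets on genotype alone, with eBayes and an intensity trend, and p-values were adjusted over genes by the Benjamini-Hochberg method. The second fit held the replicate number as a block; the labels state no pairing, and its basis is the correlation of deviations given in the report. The code was tested on simulated data.

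Values per array are given for members at an unadjusted p under 0.05 in either fit, those whose groups do not overlap, the 3 largest changes in each direction, and members fixed by their role in T cells, B cells or antigen-presenting cells. Other pathway genes are given by count, with values for those under 0.05 in both fits; Tnf was added after its values were seen. The members, lists and tests were chosen with earlier results of these data known. Alternatives were eBayes without the trend or with robust variance, median centring, a repeated quantile normalization, removal of dim probe sets, the mean of a gene's probe sets, removal of each array in turn and, chosen after seeing the data, removal of number 3 from the blocked fit and eBayes over the gene table.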

Additional observations from a re-analysis of the deposited data

How the results depend on the processing

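The count of all genes called was 0 on genotype alone and 1 (Sh2d1a) with the replicate block, 1 with robust eBayes, 36 in the block with number 3 left out, and 0 to 1 with each array left out in turn. The count of members called was 0 except in the block with number 3 left out, where it was 1 (Cd70). Members at an unadjusted p under 0.05 (limma) numbered 0 on genotype alone, 8 with the block, 9 in the block with number 3 left out, and 0 to 2 with each array left out: Cd70 without WT replicate 3, and Tnfrsf18 and Tnfrsf21 without SAP-deficient replicate 2. Only 7 of 36 members kept the sign of their change in every alternative run. Centring reversed Tnfsf4 (0.0017) and Tnfrsf13c (0.0070). The mean of a gene's probe sets reversed Tnfsf11 (0.024), Tnfsf10 (-0.13), Cd40 (-0.0061), Tnfrsf11a (0.056) and Tnfsf13os (0.095). The block with number 3 left out reversed Tnfsf4 (0.00049), Tnfsf11 (0.018), Tnfsf10 (-0.056), Tnfsf13b (-0.11), Tnfrsf9 (0.023), Tnfrsf14 (0.084), Tnfrsf1b (0.028), Tnfrsf1a (0.014), Tnfrsf13c (0.015), Tnfrsf17 (-0.067) and Tnfrsf12a (0.014). Leaving out 1 array removes 1 side of a replicate number, and it reversed 27 members, whose changes then ranged as follows: Cd27 -0.34 to 0.25, Cd40 -0.052 to 0.26, Cd40lg -0.86 to 0.39, Eda2r -0.27 to 0.34, Fasl -0.076 to 0.66, Ngfr -0.073 to 0.14, Tnfrsf10b -0.077 to 0.24, Tnfrsf11b -0.15 to 0.084, Tnfrsf12a -0.10 to 0.053, Tnfrsf13b -0.14 to 0.32, Tnfrsf13c -0.14 to 0.13, Tnfrsf14 -0.15 to 0.083, Tnfrsf17 -0.033 to 0.18, Tnfrsf19 -0.040 to 0.47, Tnfrsf1b -0.35 to 0.20, Tnfrsf22 -0.18 to 0.14, Tnfrsf23 -0.11 to 0.24, Tnfrsf4 -0.10 to 0.12, Tnfrsf9 -0.078 to 0.0020, Tnfsf10 -0.27 to 0.29, Tnfsf11 -0.12 to 0.11, Tnfsf13b -0.078 to 0.20, Tnfsf13os -0.094 to 0.0063, Tnfsf14 -0.20 to 0.49, Tnfsf4 -0.44 to 0.32, Tnfsf8 -0.49 to 0.12, Tnfsf9 -0.066 to 0.58. The cause of the other reversals was not tested. The 9 members that kept their sign without any 1 array were Cd70, Fas, Ltbr, Tnfrsf11a, Tnfrsf18, Tnfrsf1a, Tnfrsf21, Tnfrsf25 and Tnfrsf8. Members under the median of probe-set means, 9 of 36, have signals near background.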
